A study of Mus musculus with 49 samples.

Results

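Prnp was 1 gene of the 45252 gene symbols listed in the count table and 1 of the 18220 that passed the filter on low counts, and it was chosen by its CPM per mouse in this table, since earlier results of these mice had shown it higher in the bigenic than in the monogenic animals. Its values against monogenic mice are therefore a description and carry no test. RNA came from about 30 mg of neocortical tissue of each of 49 mice bred on mixed C57BL/6J x C3H/HeJ stock and sequenced as 1 library per mouse. The 17 ctrl-PBS mice were monogenic and received phosphate-buffered saline. The 32 rNLS8 mice were bigenic, carrying NEFH-tTA, in which the promoter of the neurofilament heavy chain gene drives the doxycycline-controlled transactivator in neurons, and tetO-hTDP-43ΔNLS, a form of human TDP-43 that cannot use its nuclear import signal. Of these, 10 received saline (TDP-PBS), 10 the pooled TDP-43 peptides 10 and 12 (TDP-10+12) and 12 peptide 15 (TDP-15), the last covering the phosphorylated C terminus. Each peptide injection held a total of 40 µg of peptide coupled to ovalbumin, mixed with a CpG oligonucleotide and the adjuvant Alhydrogel. The first was given at 8 weeks of age, and injections were repeated before and after transgene induction. The saline groups received saline in place of the conjugates. All mice, controls included, were taken off doxycycline at 25.5 weeks and killed at 28.5 weeks, 3 weeks later. Which of the transgenes the monogenic mice carried is not given in the sources used here. Transgenic animals of this kind express the transgene only where the driver is active, and unsorted cortical tissue mixes neurons with glia and vessels, so a change in the RNA per cell and a change in the number of cells that hold it cannot be told apart.

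Prnp encodes the cellular prion protein PrP, a glycoprotein held on the outer face of the plasma membrane by a glycosylphosphatidylinositol (GPI) anchor. It is abundant in neurons and is also made by astrocytes, oligodendrocytes and other cells of the brain, and its misfolded form is the agent of prion disease. The mouse gene also has a history as a tool: vectors built from its promoter or from its noncoding exons and 3′ untranslated region, some of them with a tetracycline-responsive promoter, have long been used to make transgenic mice.

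On GRCm38.p6, Prnp lies on the plus strand of chromosome 2 from 131909928 to 131938436 in the RefSeq table. Its main transcript in GENCODE M21 has 3 exons, at 131909928 to 131910003 (76 bp), 131912195 to 131912292 (98 bp) and 131936420 to 131938429 (2010 bp). The first and second exons are wholly noncoding. The third holds all 765 coding bases, counting the stop codon, and 1245 noncoding bases. Of 2184 transcript bases, 1419 (65.0%) are thus noncoding. A gene-level count adds reads from all 3 exons and cannot show which of them rose.

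The 250 bases just upstream of the transcription start are printed because they are the gene's own proximal promoter and lie outside the counted transcript, so that they separate what a count can show (RNA) from what it cannot (use of this promoter). The sequence is from RefSeq (GRCm38.p6, plus strand, chr2:131909678-131909927), 5′ to 3′, with matches to any of 7 searched motifs in capitals.
Prnp promoter: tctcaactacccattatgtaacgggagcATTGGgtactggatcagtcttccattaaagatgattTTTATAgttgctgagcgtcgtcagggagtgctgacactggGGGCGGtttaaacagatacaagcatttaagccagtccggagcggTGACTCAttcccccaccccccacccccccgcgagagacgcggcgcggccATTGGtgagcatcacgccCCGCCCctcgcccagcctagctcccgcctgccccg
Both strands were searched. The window held 2 GC boxes (GGGCGG), the letters bound by Sp1, starting 146 and 35 bases before the start, and 32.7% of the 32817 promoter windows of the same length held at least 1. It held 2 CCAAT boxes (CCAAT), at 222 and 53 bases before the start and both on the minus strand, against 33.8% of windows with at least 1. One AP-1 motif (TGACTCA) began 102 bases before the start, a match found in 4.46% of windows. One TATA motif (TATAAA) lay on the minus strand 186 bases before the start, against 12.4% of windows. No match was found to the heat shock motif GAANNTTC (6.69% of windows), to TTCNNNGAA, bound by STAT factors (7.02%), or to the E-box CACGTG (6.02%). These are matches of letters, and no binding was measured.

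Total counts ranged from 17775738 to 21033608 per mouse, with a median of 19955601, and levels are given as CPM, the count per 1000000 reads after TMM scaling. Prnp was counted deeply, with 8213 to 33828 reads per mouse. TDP-10+12 mouse 301 stood apart from the other animals: it was the highest or lowest of the 32 rNLS8 mice for 19.2% of the genes tested, the largest share of any of them. TDP-PBS mouse 26 followed with 15.5%. Group comparisons of Prnp are given with and without mouse 301, and relations between genes with and without mouse 301 and a further mouse together.

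In the 17 ctrl-PBS mice Prnp ranged from 434 to 525 CPM with a median of 489 CPM. The mean was 487 ± 23.8 CPM (SD), a coefficient of variation of 4.89%. Of the 1999 genes with at least 100 CPM in ctrl-PBS mice, 169 had a smaller coefficient of variation than Prnp, and the median over these genes was 7.75%. Prnp was thus one of the more even genes among the monogenic mice.

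In the 10 TDP-PBS mice Prnp ranged from 824 to 1112 CPM with a median of 1030 CPM and a mean of 1004 ± 95.0 CPM (SD here and below). In the 10 TDP-10+12 mice the lowest value was 803 CPM, the median 1021 CPM and the highest 1674 CPM, with a mean of 1053 ± 238 CPM, or 984 ± 101 CPM over the 9 mice other than mouse 301. In the 12 TDP-15 mice the values ran from 905 to 1128 CPM around a median of 997 CPM, with a mean of 1007 ± 73.0 CPM. All 32 rNLS8 mice were above all 17 ctrl-PBS mice. The lowest rNLS8 animal, at 803 CPM, was 1.53 times the highest ctrl-PBS animal, at 525 CPM. Over the genes tested, 1.16% had every rNLS8 mouse above every ctrl-PBS mouse and 1.64% had every rNLS8 mouse below.

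**Figure D1:**
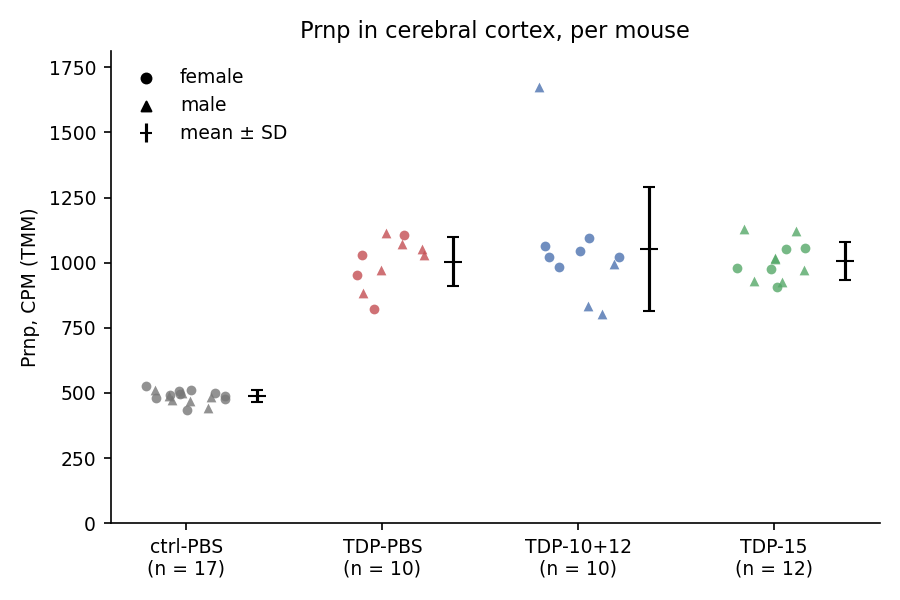
Prnp level in CPM (TMM scaled, vertical axis from 0) of each of the 49 mice, by group, with circles for females and triangles for males and the group mean ± SD at the right of each group. The 32 rNLS8 mice lie between 803 and 1674 CPM, all above the 525 CPM of the highest ctrl-PBS mouse, and the 3 rNLS8 groups overlap.

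As log2 fold changes against ctrl-PBS, the fitted values were 1.04 in TDP-PBS, 1.11 in TDP-10+12 and 1.05 in TDP-15, which are 2.06-, 2.16- and 2.07-fold. The 3 values share the same control mice. Without mouse 301 the TDP-10+12 value was 1.03. The size of the difference was not extreme for this model, since 317 of the 18220 genes tested had a larger increase in TDP-PBS, while 21.9% of them were called higher and 21.6% lower in that comparison (adjusted p under 0.05, edgeR's quasi-likelihood test).

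The comparisons among the 3 rNLS8 groups were not used to choose the gene and ask whether immunization moved it. TDP-10+12 differed from TDP-PBS by a log2 fold change of 0.07 (SE 0.07, adjusted p = 0.975, edgeR), with a 95% interval of the fold from 0.951 to 1.16. TDP-15 differed from TDP-PBS by 0.00 (SE 0.07, adjusted p = 0.9996, edgeR), with an interval of the fold from 0.913 to 1.10. TDP-10+12 and TDP-15 differed by 0.06 (SE 0.07, adjusted p = 0.919, edgeR), with an interval from 0.953 to 1.15. None of these differences passed the threshold. Without mouse 301 the TDP-10+12 group was at a log2 difference of -0.029 from TDP-PBS and -0.032 from TDP-15, so the sign of both rested on that mouse. Over all genes edgeR called 0% in each of the 3 comparisons (unadjusted p under 0.05 for 953, 552 and 1244 genes, in the order above), and DESeq2 called 0, 0 and 2.

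No difference between the sexes passed the threshold. Among ctrl-PBS mice the 10 females had a mean of 492 ± 25.0 CPM and the 7 males 481 ± 22.3 CPM. Among rNLS8 mice the 15 females had a mean of 1008 ± 74.1 CPM and the 17 males 1032 ± 191 CPM, or 991 ± 98.2 CPM over the 16 males other than mouse 301. With group in the model, males exceeded females by a log2 value of 0.02 (SE 0.05, adjusted p = 0.999, edgeR), with a 95% interval of the fold from 0.951 to 1.08. The difference was -0.030 without mouse 301. In the same fit 17 genes, 0.0933% of those tested, were called for sex.

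Of the other genes of the prion protein family, Prnd and Prn were at the floor and Sprn was slightly lower in TDP-PBS mice. Prnd encodes Doppel, a PrP-like protein best known from testis, and its gene lies downstream of Prnp at 131950861 to 131956131. It had 2 reads in all over the 49 mice and never more than 1 in a mouse. Prn, a read-through unit annotated from 131909928 to 131956131, shares 145 bases of the first and second exons of Prnp; it had 7 reads in all and at most 3 in a mouse. Neither gene was tested, and with a floor of 3 counts, equal to 0.139 to 0.165 CPM, both were at or under the limit in every mouse. How reads in the bases shared with Prn were assigned is not given in the sources used here. Sprn, on chromosome 7, encodes Shadoo, a GPI-anchored neuronal protein related to PrP. Sprn was 164 ± 11.4 CPM in ctrl-PBS and 150 ± 14.5 CPM in TDP-PBS mice, a log2 fold change of -0.13 (SE 0.04, adjusted p = 0.0176, edgeR), and its groups overlapped, with 8 of 32 rNLS8 mice below all ctrl-PBS mice. Against the same controls Sprn was at -0.06 in TDP-10+12 (adjusted p = 0.298, edgeR) and -0.07 in TDP-15 mice (adjusted p = 0.206, edgeR), which did not pass.

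Tardbp, the mouse gene of TDP-43, was read beside Prnp because the transgene encodes the human form of the same protein. TDP-43 represses its own messenger RNA, which is background and was not measured here. Tardbp was lower in TDP-PBS (118 ± 14.0 CPM, lowest 91.9, median 120, highest 137) than in ctrl-PBS mice (146 ± 9.27 CPM), by a log2 value of -0.30 (SE 0.05, adjusted p = 1.54e-06, edgeR). None of the 32 rNLS8 mice was above all ctrl-PBS mice and 14 were below. Human TARDBP was not analysed here, and how the alignment treated RNA of the human sequence is not given in the sources used here. Prnp and Tardbp therefore moved in opposite directions between genotypes.

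**Figure D2:**
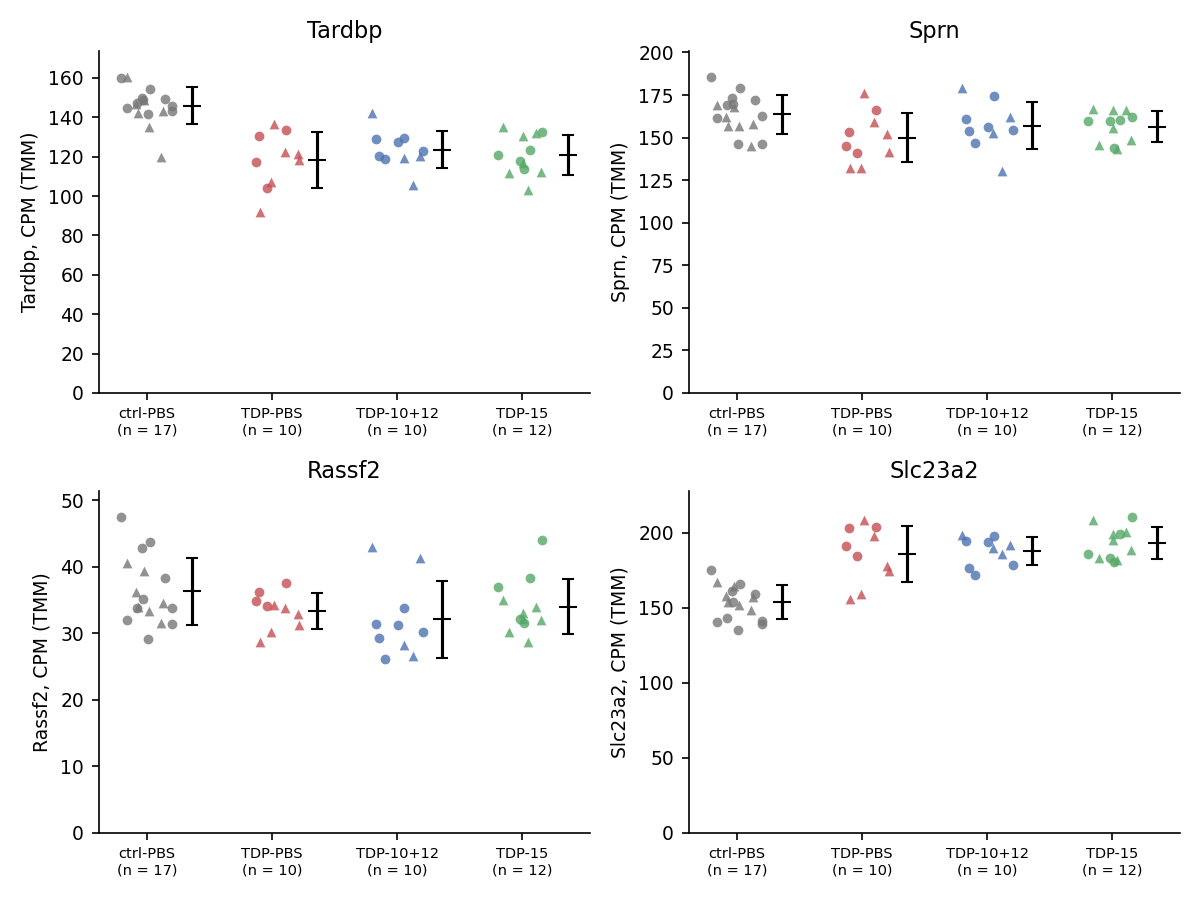
Levels in CPM (TMM scaled, axes from 0) of Tardbp, of the PrP relative Sprn and of the chromosome 2 neighbours Rassf2 and Slc23a2 in each mouse by group, circles for females, triangles for males, with mean ± SD. Tardbp falls from 146 CPM in ctrl-PBS to 118 CPM in TDP-PBS mice, Sprn and Rassf2 overlap between the groups, and Slc23a2 is higher in the rNLS8 mice.

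The genes around Prnp were described to see whether a wider stretch of chromosome 2 rose with it. Within 250 kb, 3 genes were tested. Rassf2, a Ras-association domain protein whose gene begins 54414 bp downstream, was 36.3 ± 5.0 CPM in ctrl-PBS and 33.4 ± 2.72 CPM in TDP-PBS mice (log2 fold change -0.12, SE 0.07, adjusted p = 0.178, edgeR). The long noncoding RNA 5330413P13Rik, 62272 bp upstream, had 1.78 CPM in ctrl-PBS and 1.44 CPM in TDP-PBS mice (log2 fold change -0.30, SE 0.18, adjusted p = 0.183, edgeR). Slc23a2, a sodium-dependent vitamin C transporter 114060 bp downstream, rose from 154 ± 11.3 to 186 ± 18.6 CPM (log2 fold change 0.27, SE 0.04, adjusted p = 4.84e-07, edgeR), with 28 of 32 rNLS8 mice above all ctrl-PBS mice. Within 1 Mb, 59 genes were listed and 30 tested, of which 4 rose and 11 fell, beside 21.9% and 21.6% of all genes tested, with a median log2 fold change of -0.11 against -0.00 over all genes tested. In none of these 30 genes were all rNLS8 mice above or all below the ctrl-PBS mice. Over all genes tested the shares were 1.16% and 1.64%, so finding none among 30 is near the background. Prnp, which had all of them above, was chosen for its level in these mice. The largest increase among the neighbours was in Siglec1, a macrophage sialic acid receptor 823150 bp upstream (log2 fold change 1.89, SE 0.28, adjusted p = 1.23e-07, edgeR), a gene named here after its value was seen.

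**Figure D3:**
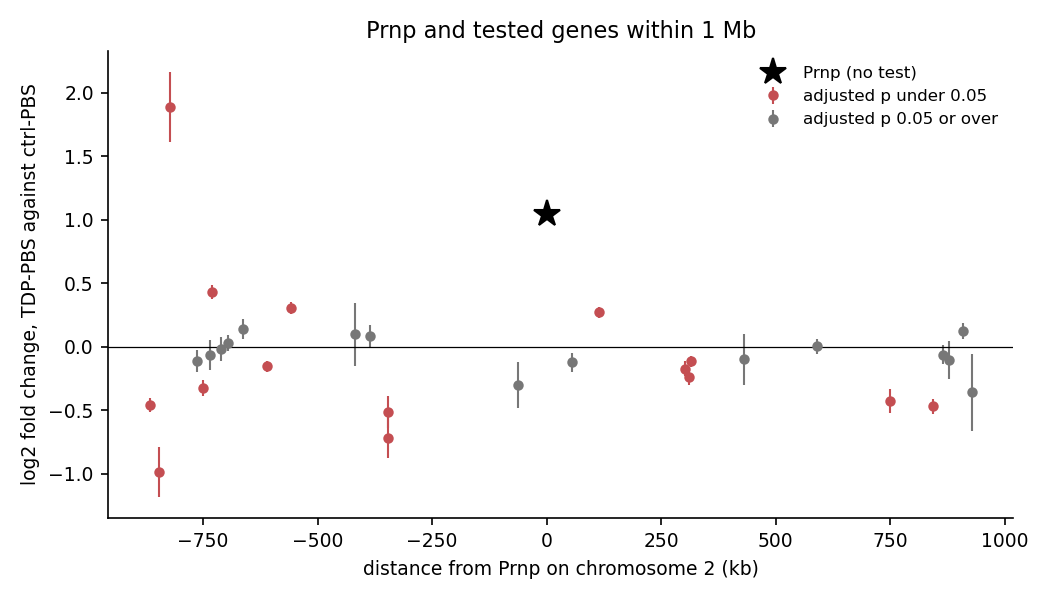
Log2 fold change of TDP-PBS against ctrl-PBS mice (vertical axis; bars are SE) for the 30 tested genes within 1 Mb of Prnp, by distance in kb, with genes at an adjusted p under 0.05 in red. Prnp is the star at 1.04; 4 neighbours rose and 11 fell, and the 3 within 250 kb lie between -0.30 and 0.27.

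Whether part of the Prnp count came from the transgene was not tested. The labels and methods do not describe the noncoding sequences of the tetO-hTDP-43ΔNLS construct. If a construct carried exons or the 3′ untranslated region of mouse Prnp, as some vectors of this family do, its RNA would map to those exons and be counted on this row, and 1419 of the 2184 bases of the transcript are of that noncoding kind. RNA of the gene itself and RNA of such a vector cannot be told apart in a gene-level count. Values that stand beside it are that all 32 bigenic mice lay above the monogenic ones, that the log2 fold changes of the 3 bigenic groups were 1.04 to 1.11, that within 250 kb Rassf2 was at -0.12, 5330413P13Rik at -0.30 and Slc23a2 at 0.27 in TDP-PBS mice, and that Prn and Prnd had at most 3 and 1 reads in a mouse.

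Genes of PrP handling were counted next. Of 12 genes of PrP partners and processing enzymes, 3 rose and 1 fell in TDP-PBS against ctrl-PBS mice, beside 21.9% and 21.6% of all genes tested, with a median log2 fold change of 0.05. Rpsa, a ribosomal protein that is also the laminin receptor reported to bind PrP, rose from 393 ± 27.2 to 743 ± 73.4 CPM (log2 fold change 0.92, SE 0.05, adjusted p = 8.92e-21, edgeR), and all 32 rNLS8 mice were above all ctrl-PBS mice. Reads of Rpsa may be split with near-identical copies elsewhere in the genome, so its level is uncertain. Bace1, the beta-secretase, rose by a log2 value of 0.21 (SE 0.04, adjusted p = 2.32e-06, edgeR), and the kinase Fyn, through which PrP can signal, by 0.14 (SE 0.04, adjusted p = 0.00254, edgeR). Adgrg6, a receptor for the PrP flexible tail on Schwann cells, fell by a log2 value of 0.70 (SE 0.16, adjusted p = 2.58e-04, edgeR). Adam10, the protease that sheds PrP from the cell surface, was 47.1 ± 5.16 CPM in ctrl-PBS and 48.2 ± 5.33 CPM in TDP-PBS mice (adjusted p = 0.658, edgeR). The 4 genes that passed were named after their values were seen.

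The GPI anchor of PrP is built and attached in the endoplasmic reticulum by the products of the Pig genes. Of 10 genes of this pathway 3 rose and 1 fell, beside the same 21.9% and 21.6% of all genes. Pigs, Pigt and Pigk belong to the transamidase that attaches the anchor; Pigs rose by a log2 value of 0.42 and Pigt by 0.18, and Pigk fell by 0.20. Pigm, a mannosyltransferase, rose by 0.41. The median of the list was 0.02. Of 7 transcription factors and stress regulators reported to act on Prnp, 1 rose and 1 fell, beside those same shares: Trp53, which encodes p53, rose by a log2 value of 0.48 (SE 0.06, adjusted p = 1.10e-09, edgeR), and Atf6, a sensor of endoplasmic reticulum stress, fell by 0.16 (SE 0.06, adjusted p = 0.0185, edgeR). Hsf1, the main heat shock factor, was 53.8 ± 4.49 CPM in ctrl-PBS and 54.0 ± 5.01 CPM in TDP-PBS mice. The counts of both lists lie near the shares of all genes and are not a result about either list. Pigs, Pigt, Pigk, Trp53 and Atf6 were named after their values were seen.

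Marker genes of several cortical cell types changed beside Prnp. The counts below stand beside 21.9% of all genes tested called higher and 21.6% called lower in TDP-PBS against ctrl-PBS mice. A count near those shares is not a result about the cell type. All 6 reactive astrocyte genes tested rose in TDP-PBS mice (median log2 fold change 1.55), as did 7 of 8 activated microglia genes (1.47), all 7 cytokine genes tested (3.24) and all 8 interferon-induced genes (3.08). Some of these were under the floor of 0.139 to 0.165 CPM in ctrl-PBS mice: Ccl4 (0.030), Cst7 (0.076), Ccl5 (0.11), Ccl2 (0.13) and Cxcl10 (0.13 CPM). Such genes passed the filter only through the rNLS8 groups, where they are high. Their part in these counts is therefore no independent support for a rise, and their fold changes are uncertain. Of 7 pan-neuronal genes 5 fell (median -0.27), as did 3 of 4 neurofilament genes (-0.36, with 1 higher), 4 of 5 layer 5 neuron genes (-0.44), 4 of 6 inhibitory neuron genes (-0.33) and 2 of 5 excitatory neuron genes (-0.16, with 1 higher). Among homeostatic cells, 4 of 6 microglia genes rose (0.39) and 2 of 6 astrocyte genes fell (-0.07). None of the 6 oligodendrocyte, 3 oligodendrocyte precursor or 4 endothelial genes passed, and of 10 genes of other regions or blood 1 rose and 1 fell. Prnp was higher while most of the neuron genes fell; the part of cell composition in its level was not tested.

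To ask which of these programs went with Prnp from mouse to mouse, log2 CPM was centred on the mean of each rNLS8 group, which removes differences between the group means. Pearson's r and Spearman's rho were tested by permutation (two-sided, 100000 resamples within groups), with Benjamini-Hochberg adjustment over the 124 relations computed: 122 listed genes, the total count and the TMM factor. Of the 122 genes, 10 had a positive and 3 a negative r past the threshold. An r of 0.5 or more in size was held by 14 of them (11.5%), beside 8.58% of the 9918 other genes with a mean of at least 10 CPM. The mice farthest from the median of Prnp were TDP-10+12 mice 51 (803 CPM) and 301 (1674 CPM). Without this pair 14 genes had a positive and 1 a negative r past the threshold, and 4 positive and 0 negative relations passed in both sets. In that set 14 genes (11.5%) had an r of 0.5 or more in size, beside 3.15% of the other genes. Without mouse 301 alone, 5 of the 10 positive and 0 of the 3 negative relations still passed. Neither technical measure passed: the total count had r = 0.24 (permutation p = 0.123, adjusted 0.273) and rho = 0.31 (permutation p = 0.0867, adjusted 0.279), and the TMM factor had r = 0.01 (permutation p = 0.957, adjusted 0.983) and rho = 0.08 (permutation p = 0.687, adjusted 0.887).

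Reactive astrocyte genes had the highest relations, with a median r of 0.64 over 6 genes and 4 past the threshold. Osmr, the oncostatin M receptor, had r = 0.66 (permutation p = 1.0e-04, adjusted 0.0124) and rho = 0.59 (permutation p = 9.4e-04, adjusted 0.0304). Its r was 0.63 without mice 51 and 301, and 0.77, 0.71 and 0.62 within TDP-PBS, TDP-10+12 and TDP-15. Gfap, the intermediate filament of astrocytes, had r = 0.68 (permutation p = 0.00177, adjusted 0.0244) and rho = 0.43 (permutation p = 0.0155, adjusted 0.101), but r = 0.42 (adjusted permutation p = 0.130) without the pair, with 0.31, 0.92 and 0.33 within the groups. Cd44, a hyaluronan receptor, had r = 0.70 (permutation p = 7.8e-04, adjusted 0.0231) and rho = 0.50 (permutation p = 0.00462, adjusted 0.0501), and r = 0.45 without the pair. Vim, another intermediate filament, named after its value was seen, had r = 0.62 (permutation p = 9.8e-04, adjusted 0.0231) and rho = 0.44 (permutation p = 0.0137, adjusted 0.100), and r = 0.45 without the pair. Osmr was the one of these 4 that stayed past the threshold without the pair (adjusted permutation p = 0.00930). Gfap, Cd44 and Vim did not pass without the pair, although their r stayed positive. The change in r was not tested.

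Mouse 301 was extreme for several of these genes. It had 1133 CPM of Gfap, against 181 to 593 CPM in the other 31 rNLS8 mice, and was the highest rNLS8 mouse for 5 of 6 reactive astrocyte genes. It also had the highest Tardbp (142 CPM against 91.9 to 137 CPM), Gad2 (361 against 118 to 297 CPM) and Aqp4 (141 against 59.0 to 101 CPM), and the lowest Camk2a (1947 against 2326 to 3709 CPM) and Nefl (87.6 against 98.6 to 152 CPM). Its total count of 20290354 and its TMM factor of 0.997 were within the range of the others. The part of these levels in the relations was not tested beyond leaving the mouse out.

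**Figure D4:**
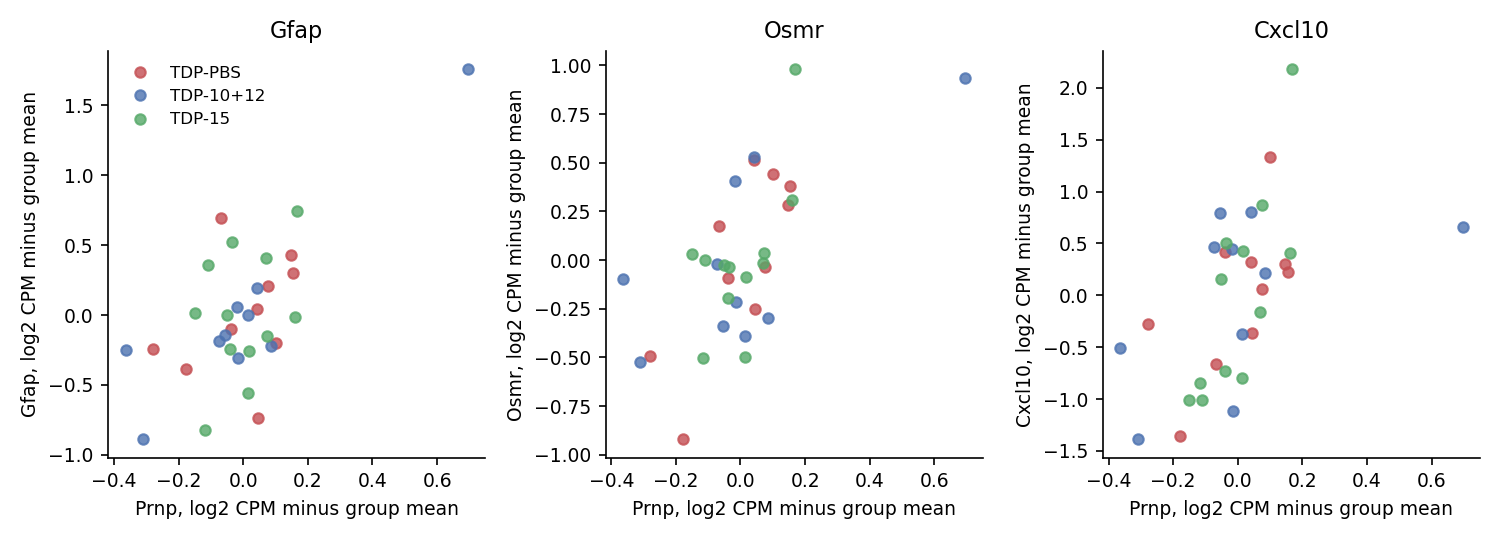
Group-centred log2 CPM of Prnp (horizontal axis) against that of Gfap, Osmr and Cxcl10 (vertical axes) in the 32 rNLS8 mice, coloured by group; 0 is the mean of the mouse's own group. The point far to the right in each panel is mouse 301; r is 0.68, 0.66 and 0.53 with it and mouse 51, and 0.42, 0.63 and 0.64 without them.

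Homeostatic astrocyte genes split. Gja1, the gap junction protein connexin 43, had r = -0.51 (permutation p = 9.9e-04, adjusted 0.0231) and rho = -0.58 (permutation p = 8.2e-04, adjusted 0.0304), with -0.41 without the pair. Slc1a3, a glutamate transporter, had r = -0.51 (permutation p = 0.00122, adjusted 0.0231) and rho = -0.58 (permutation p = 9.8e-04, adjusted 0.0304), with -0.46 without the pair. Aqp4, the astrocyte water channel, had r = 0.63 (permutation p = 0.00145, adjusted 0.0231) and rho = 0.39 (permutation p = 0.0292, adjusted 0.143), with 0.37 without the pair. None of these 3 passed without mice 51 and 301. The 1 negative relation that passed without them was that of Slc1a2, the main glutamate transporter of astrocytes (r = -0.48, adjusted permutation p = 0.0499), which had r = -0.31 with them and was named after its value was seen.

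Among microglial genes, 2 of 6 homeostatic ones passed. Tmem119, a microglial membrane protein, had r = 0.49 (permutation p = 0.00416, adjusted 0.0401) and rho = 0.50 (permutation p = 0.00458, adjusted 0.0501), and r = 0.54 without the pair, where it stayed past the threshold (adjusted permutation p = 0.0285). None of the 8 activated microglia genes passed, with r from 0.10 to 0.34.

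Interferon-induced genes had higher r without the same mice, and so did the chemokines Cxcl10 and Ccl5, while the median r of the 7 cytokine genes was 0.26 with and 0.23 without them. Cxcl10, an interferon-induced chemokine, had r = 0.53 (permutation p = 4.0e-04, adjusted 0.0231) and rho = 0.58 (permutation p = 7.0e-04, adjusted 0.0304), and r = 0.64 (adjusted permutation p = 0.00930) without the pair. Its r was 0.61, 0.51 and 0.77 within TDP-PBS, TDP-10+12 and TDP-15. Ccl5, a T cell chemokine, had r = 0.36 (permutation p = 0.0344, adjusted 0.129) and rho = 0.52 (permutation p = 0.00335, adjusted 0.0501), and r = 0.66 (adjusted permutation p = 0.00930) without the pair. The 8 interferon-induced genes had r from 0.19 (Mx1) to 0.39 (Oas2) over the 32 mice, and none passed by r. Their rho over the same mice ran from 0.34 (Mx1) to 0.55 (Usp18). By rho Usp18 passed (permutation p = 0.00156, adjusted 0.0387). Without mice 51 and 301 all 8 passed, with r from 0.50 (Mx1) to 0.66 (Ifit1) and a median of 0.58. Without mouse 301 alone all 8 passed too, with r from 0.48 (Mx1) to 0.63 (Ifit1). Mx1 and Ifit1 were named after their values were seen. The remaining gene past the threshold without the pair was Pecam1, an endothelial adhesion molecule (r = 0.54, adjusted permutation p = 0.0395), which had r = 0.43 with it. Within TDP-15 mice r of the 8 interferon-induced genes was 0.61 to 0.74, within TDP-PBS mice 0.27 to 0.59 and within TDP-10+12 mice -0.13 to 0.30. Whether the relation differs between the groups was not tested.

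Of 27 neuronal genes 1 passed. Camk2a, a kinase of excitatory neurons, had r = -0.61 (permutation p = 0.00420, adjusted 0.0401) and rho = -0.41 (permutation p = 0.0235, adjusted 0.127), but -0.34 (adjusted permutation p = 0.345) without the pair and 0.03 within TDP-15 mice. Nefl, the neurofilament light chain, had r = -0.49 (permutation p = 0.0210, adjusted 0.107) and rho = -0.23 (permutation p = 0.211, adjusted 0.446), and -0.18 without the pair. The pan-neuronal genes lay between -0.26 and 0.15 and the layer 5 genes between -0.45 and 0.04. Gad2, an enzyme of GABA synthesis, had r = 0.51 (permutation p = 0.0247, adjusted 0.112) and rho = 0.23 (permutation p = 0.202, adjusted 0.446), and 0.18 without the pair.

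Of the genes of PrP biology, Stip1 and Xbp1 passed. Stip1, a co-chaperone and a ligand of PrP, had r = 0.58 (permutation p = 0.00149, adjusted 0.0231) and rho = 0.51 (permutation p = 0.00438, adjusted 0.0501), with 0.48 without the pair (adjusted permutation p = 0.0978) and 0.50, 0.68 and 0.68 within the groups. Xbp1, a transcription factor of the unfolded protein response, had r = 0.44 (permutation p = 0.00277, adjusted 0.0312) and rho = 0.42 (permutation p = 0.0191, adjusted 0.108), with 0.43 without the pair (adjusted permutation p = 0.126). Tardbp had r = 0.32 (permutation p = 0.0614, adjusted 0.166) and rho = 0.28 (permutation p = 0.131, adjusted 0.338), with 0.16 without the pair. Sprn had r = -0.05 (permutation p = 0.787, adjusted 0.923) and rho = -0.09 (permutation p = 0.642, adjusted 0.866), with -0.26 without the pair. In the plot of r by gene list, the reactive astrocyte genes are the list farthest to the right over 32 mice and the interferon-induced genes over 30.

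**Figure D5:**
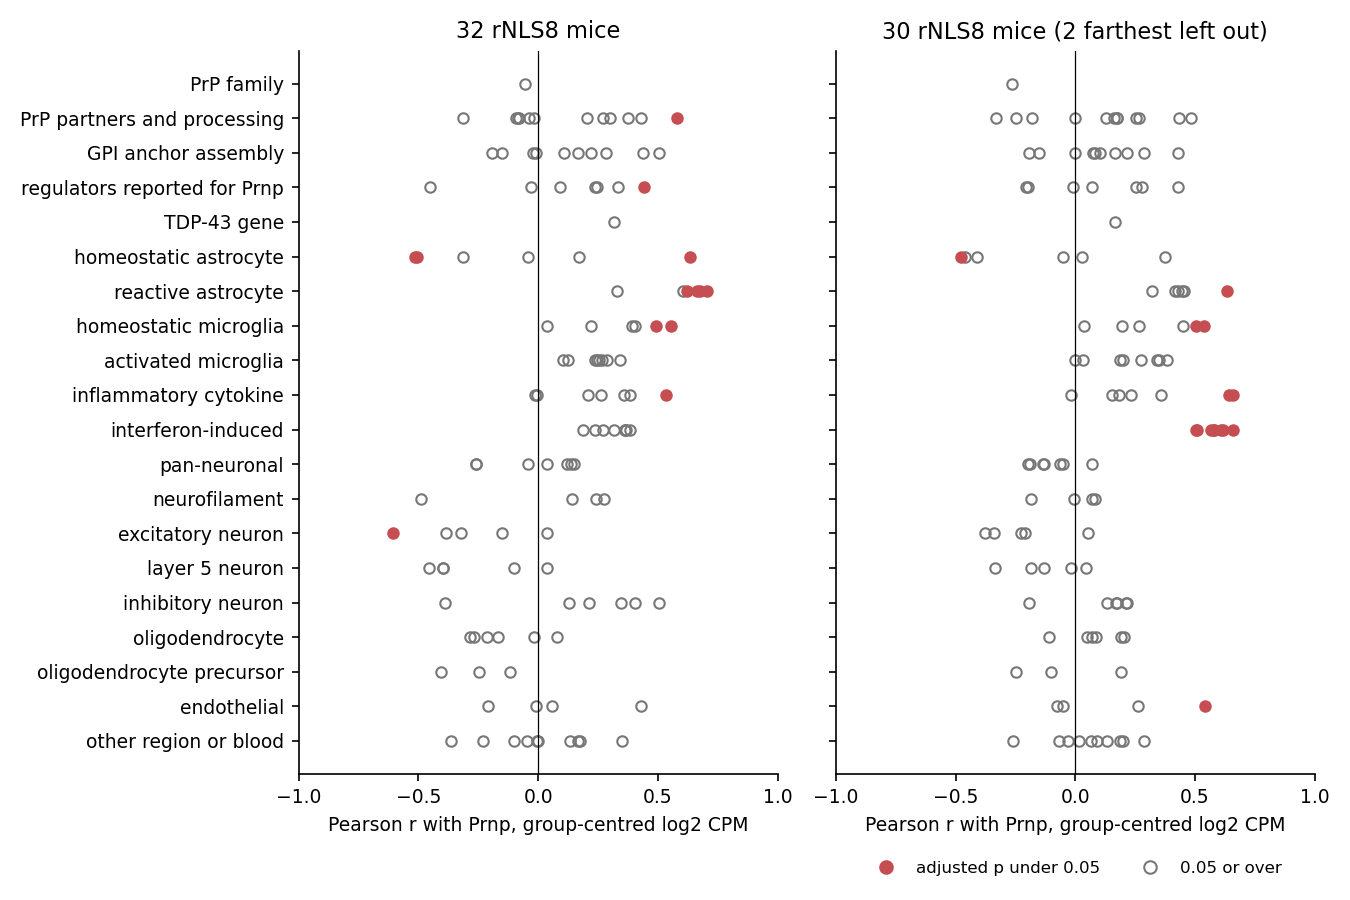
Pearson r of each of the 122 listed genes with Prnp (horizontal axis, group-centred log2 CPM), 1 row per gene list, over the 32 rNLS8 mice (left) and over 30 without mice 51 and 301 (right); filled red points have an adjusted permutation p under 0.05. On the left 10 positive and 3 negative relations are filled, 4 of them reactive astrocyte genes; on the right 14 positive and 1 negative, all 8 interferon-induced genes among them.

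In the 17 ctrl-PBS mice, where Prnp varied little, 2 of the 122 genes passed. Vip, a neuropeptide of inhibitory neurons, had r = 0.79 (permutation p = 2.2e-04, adjusted 0.0273) and rho = 0.77 (permutation p = 5.6e-04, adjusted 0.0347), with 0.69 without the 2 mice farthest from the median of Prnp. Eomes, a transcription factor from the list of other regions or blood, had r = -0.78 (permutation p = 4.8e-04, adjusted 0.0298) and rho = -0.82 (permutation p = 1.0e-04, adjusted 0.0124), with -0.62 without those mice. The level of Eomes in ctrl-PBS mice was low and uneven, at 2.87 ± 6.67 CPM. Vip and Eomes were both named after their values were seen. In the rNLS8 mice their r was -0.39 and -0.10. None of the reactive astrocyte, microglial, cytokine or interferon-induced genes passed in ctrl-PBS mice. An r of 0.5 or more in size was held by 22 of the 122 genes (18.0%), beside 9.64% of the other genes. Neither technical measure passed, although the TMM factor had r = -0.66 (permutation p = 0.00291, adjusted 0.0578) and rho = -0.73 (permutation p = 0.00139, adjusted 0.0575), with -0.75 without those mice, and the total count had r = 0.55 (permutation p = 0.0230, adjusted 0.136) and rho = 0.46 (permutation p = 0.0666, adjusted 0.329), with 0.12 without them. Their part in the relations of Vip and Eomes was not tested.

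The points of every relation come from the same libraries, so the relations are not independent of each other. Among the genes with a mean of at least 10 CPM, the 5 with the pattern most like that of Prnp over the 32 rNLS8 mice were Slc1a4 (r = 0.80), Leprotl1 (0.79), Gfpt2 (0.79), Pias2 (0.78) and S1pr3 (0.77). Slc1a4 transports neutral amino acids, Gfpt2 opens the hexosamine pathway, Pias2 is a SUMO ligase and S1pr3 a sphingosine 1-phosphate receptor. Without the pair their r was 0.56, 0.77, 0.64, 0.61 and 0.36, in that order. The ranking changed without the pair: of these 5 genes 1, Leprotl1, was still among the 5 most like Prnp. Within TDP-PBS, TDP-10+12 and TDP-15 mice r of Leprotl1 was 0.87, 0.82 and 0.73, although Leprotl1 was lower in TDP-PBS than in ctrl-PBS mice (36.7 against 47.6 CPM, log2 fold change -0.37, SE 0.04, adjusted p = 4.45e-10, edgeR) where Prnp was higher. In ctrl-PBS mice its r was 0.02. The genes most opposite were Aifm3 (r = -0.85), Matk (-0.79), Ccdc74a (-0.78), Tmem191c (-0.77) and Pacsin3 (-0.77), of which Matk is a kinase related to Csk and Pacsin3 an adaptor of endocytosis. Their r without the pair was -0.69, -0.68, -0.62, -0.48 and -0.51, and 2 of them, Aifm3 and Matk, were still among the 5 most opposite. All 5 were called lower in TDP-PBS than in ctrl-PBS mice, beside 21.6% of all genes tested. Their log2 fold changes ran from -0.63 (Tmem191c) to -0.30 (Matk). Of the 5 genes most like Prnp, all but Leprotl1 were called higher, beside 21.9% of all genes tested. The log2 fold changes were 0.66 for Slc1a4, 0.63 for Gfpt2, 0.38 for Pias2 and 0.35 for S1pr3.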

How the data were processed

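Cortical RNA of 49 mice was sequenced as 100 bp read pairs. The authors aligned the reads to GRCm38.p6 and deposited raw gene counts per mouse. The submitters' processing notes list HISAT, HISAT2, Bowtie, Bowtie2 and RSEM without roles; the annotation and the strand setting are not given in the sources used here. Genes were kept by filterByExpr (minimum count 10 and minimum total 15, using groups). After TMM scaling 1 quasi-likelihood model covered the 49 mice (glmQLFit, glmQLFTest, edgeR 4.0.16), two-sided, with Benjamini-Hochberg adjustment over all 18220 genes tested; DESeq2 1.42.0 was an alternative. The fit was tested on simulated data. Relations used log2 CPM with a prior count of 2. Groups came from the labels, 1 library per animal. Prnp and the gene lists were chosen with earlier results of these data known. Named in addition to Prnp were the PrP family, Tardbp, up to 3 genes of each list with the largest r in size, tested neighbours within 250 kb and the 5 genes most like Prnp in each direction; 1 gene of these is not reported here. Promoter and gene positions are from RefSeq, exons from GENCODE. Intervals and floors cover counting error or the spread between mice only.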

Additional observations from a re-analysis of the deposited data

Results flagged for a closer look

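In TDP-10+12 mice the highest Prnp value (mouse 301, 1674 CPM) stood apart from the other 9, its gap to the next mouse being 0.663 of the whole range, over the limit of Dixon's test for 10 samples. Gfap of the same mouse (1133 CPM) stood apart as well, with a gap of 0.788 of the range. The highest and lowest of 10 mice were examined for 6 genes in TDP-PBS and TDP-10+12 mice, 12 sets of values in all, and chance gives about 1 in 20. The reason was not tested.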

How the results depend on the processing

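The alternatives were chosen with the design; leaving out mouse 301 was added after seeing the data. The log2 fold change of Prnp against ctrl-PBS lay between 1.04 and 1.05 in TDP-PBS, 1.03 and 1.12 in TDP-10+12 and 1.04 and 1.06 in TDP-15 mice. Among rNLS8 groups and between sexes no alternative brought it past the threshold; without mouse 301 it turned to -0.029 for TDP-10+12 against TDP-PBS, -0.032 for TDP-10+12 against TDP-15 and -0.030 for males against females. Each mouse is a separate animal with its own number, and the groups share none. The paper states that littermates were randomized to the immunization groups. Litter is not given in the labels, so no analysis paired or blocked by litter was possible.

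Counts of listed genes called in TDP-PBS moved little. With at least 10 counts in every mouse, 4 activated microglia, 0 cytokine and 5 interferon-induced genes were higher, since fewer were tested. Of excitatory neuron genes 0 were higher with DESeq2 size factors, no filter, sex as a covariate or only the groups compared. Genes of other regions or blood were 2 higher with upper-quartile scaling, at least 10 counts in every mouse or only the groups compared, and without mouse 301, and 0 lower with at least 10 counts in every mouse, DESeq2 or only the groups compared. With sex as a covariate 1 homeostatic astrocyte gene was higher. With only the groups compared, 1 oligodendrocyte precursor gene was higher (1 also without mouse 301) and 0 regulators of Prnp were lower.

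The relations of Prnp were less stable. The 10 positive and 3 negative relations became 5 and 0 with centring on group and sex, 2 and 0 without TDP-10+12 mice, and 0 and 0 without TDP-15 mice, where fewer mice remained. By Spearman 3 were positive, those of Osmr, Cxcl10 and Usp18. Negative ones were 5 with CPM by library total, 1 without centring, 1 without mice 51 and 301, and 1 without mouse 301 alone, where 15 were positive. Osmr passed in all of these but that without TDP-15 mice (adjusted permutation p = 0.0570). Small values of r changed sign, and the cause was not tested. Without TDP-PBS mice r was 0.058 for Sprn, -0.030 for Slco1a4 and -0.075 for the TMM factor. Without TDP-10+12 mice it was -0.22 for Cst7, -0.029 for Lgals3, 0.087 for Stmn2, 0.039 for Nefl, -0.046 for Nefh, 0.016 for Cnp, 0.00979 for Mog, 0.26 for Gpr17, 0.00803 for Pdgfra and 0.046 for Cldn5. Without TDP-15 mice it was 0.064 for Pdgfra. Without mice 51 and 301 it was -0.00703 for Nefh, 0.069 for Cnp, 0.050 for Mog, 0.19 for Gpr17 and 0.090 for Ttr, and without mouse 301 alone 0.091 for Gpr17.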
